A study of Mus musculus with 80 samples.

Results

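The 10 genes described here encode enzymes that make, salvage or divert nicotinamide adenine dinucleotide (NAD) in mouse liver: Nampt, Nnmt, Naprt, Nadsyn1, Nmnat1, Nmnat3, Nmrk1, Qprt, Nadk and Acmsd. They were taken by symbol from a gene count table of 78275 genes, and all 10 were among the 21187 genes with enough counts to test. The transcripts were measured by RNA sequencing of poly(A)-selected RNA in 80 livers, 1 per mouse. The mice were male and female C57BL/6J animals 8 to 12 weeks old, on standard chow, with 10 days of 12 h light and 12 h dark before constant darkness on day 11. Control mice ate ad libitum throughout, and fasted mice lost their food at circadian time (CT) 10. Livers were taken every 4 h from CT8 to CT44, with 2 males and 2 females per treatment and time. The mice labelled fasted at CT8 had not yet lost their food, and those from CT12 to CT44 had been without it for 2 h to 34 h. A piece of about 40 mg from the left lobe was used. All mice shared strain, diet and lighting, and no group carried a transgene. In a piece of whole liver, fewer cells of a type and less RNA per cell cannot be told apart.

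NAD carries electrons in fuel oxidation and is also consumed by sirtuins and poly(ADP-ribose) polymerases, which release nicotinamide. In salvage, Nampt converts nicotinamide to nicotinamide mononucleotide and Nmrk1 makes the same product from nicotinamide riboside, after which the Nmnat enzymes complete NAD. Liver can also build NAD from nicotinic acid through Naprt and Nadsyn1, and from tryptophan through the kynurenine pathway and Qprt, while Acmsd draws a kynurenine intermediate away from NAD. Nnmt methylates nicotinamide with S-adenosylmethionine and so removes it from salvage, and Nadk phosphorylates NAD to NADP. Nampt is a known target of the circadian clock's activators.

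Because several of these genes moved over the day, their promoters were searched for letters that clock and nuclear receptor proteins are known to bind. The windows span 250 bases before to 50 after the annotated start, from RefSeq on GRCm38.p6, whereas the counts were made on GRCm39, so these coordinates belong to the sequences alone. The motifs were the E-box CACGTG, the D-box TTATGTAA and the nuclear receptor half-site AGGTCA, on both strands. They were present in 7.15%, 0.938% and 16.3% of 32851 mouse promoters. Nnmt and Naprt had no entry. Shown are the windows of Nampt, Nmnat3 and Nadk, with the match in capitals, and that of Nmrk1, which peaked close to Nampt and had none of the 3 motifs in its window.

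Nampt, chr12:32820085-32820384, plus strand: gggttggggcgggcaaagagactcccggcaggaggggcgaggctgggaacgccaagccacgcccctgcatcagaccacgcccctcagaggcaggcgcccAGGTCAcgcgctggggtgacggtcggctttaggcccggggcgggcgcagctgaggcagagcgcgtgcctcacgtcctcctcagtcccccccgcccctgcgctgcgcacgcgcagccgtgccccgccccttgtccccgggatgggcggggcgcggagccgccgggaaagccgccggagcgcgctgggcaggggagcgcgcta
Nmnat3, chr9:98296320-98296619, plus strand: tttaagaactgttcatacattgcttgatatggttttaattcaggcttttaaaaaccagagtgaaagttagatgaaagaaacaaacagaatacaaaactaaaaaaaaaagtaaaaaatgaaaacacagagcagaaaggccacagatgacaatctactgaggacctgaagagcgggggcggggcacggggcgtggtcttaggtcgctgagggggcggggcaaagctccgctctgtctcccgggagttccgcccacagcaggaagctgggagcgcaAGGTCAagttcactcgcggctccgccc
Nadk (the other start), chr4:155563565-155563864, plus strand: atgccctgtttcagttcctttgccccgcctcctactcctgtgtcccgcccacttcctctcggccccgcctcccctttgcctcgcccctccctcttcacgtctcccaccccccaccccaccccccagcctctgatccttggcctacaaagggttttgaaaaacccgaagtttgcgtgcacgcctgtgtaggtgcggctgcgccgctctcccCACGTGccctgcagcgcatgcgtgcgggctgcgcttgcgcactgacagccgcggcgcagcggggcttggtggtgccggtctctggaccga
Nmrk1, chr19:18631766-18632065, plus strand: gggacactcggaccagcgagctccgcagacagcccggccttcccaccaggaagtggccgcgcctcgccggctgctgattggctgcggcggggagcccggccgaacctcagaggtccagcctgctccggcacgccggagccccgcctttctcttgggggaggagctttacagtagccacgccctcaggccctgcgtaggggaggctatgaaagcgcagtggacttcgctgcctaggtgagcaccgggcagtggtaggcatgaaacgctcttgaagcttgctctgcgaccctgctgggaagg

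The half-site AGGTCA began 151 bases before the start of Nampt and 23 bases after that of Nmnat3. The E-box lay 40 bases before the other annotated start of Nadk. None of the windows shown held the D-box, and those of Nampt, Nmnat3 and Nmrk1 held no E-box. The windows of Nadsyn1, Nmnat1, Qprt and the first start of Nadk, not shown, held none of the 3 motifs. These are matches of letters, and no binding was measured.

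Library totals ran from 25534901 to 59927771 counts. For 40 libraries the title gave another sex than the detailed label, and for 40 another treatment; the titles were used. By title, Xist exceeded 4 summed Y-linked genes in 40 of 40 female libraries and the reverse held in 40 of 40 male libraries. The fasting markers Fgf21 (log2 difference 3.95) and Cyp4a14 (4.91) were higher and Srebf1 (fell by 3.13 on the log2 scale) was lower in fasted mice. 2 libraries stood apart: female 2 of control CT8 and female 2 of fasted CT40 had median correlations with their group of 0.939 and 0.943, against at least 0.965 for the others. Female 2 of control CT8 also had the lowest total, and 31.3% of its counts lay on a ribosomal RNA gene, against at most 4.88% in any other library. Both stayed in the main fits. Results were repeated without each of these 2 libraries, and calls that changed are given beside them. Kupffer cell markers were lower in fasted mice in 5 of 5 genes, with summed levels of 182 to 541 CPM in controls and 118 to 390 CPM in fasted mice. Of 4 cholangiocyte and 4 lymphocyte markers 3 were lower in each list. Of 5 endothelial and 5 stellate markers 3 were lower and 1 higher in each list. Of 5 hepatocyte markers 4 were higher and 1 lower, with a median log2 difference of 0.76. Among 5 pericentral markers 2 were higher and 2 lower, and among 4 periportal markers 2 were higher and 1 lower. Of 3 erythroid markers 1 was lower. On average over the fast, 29.5% of all genes tested were higher and 32.9% lower. Hepatocyte markers were abundant in every library from CT12 to CT44, from 57948 to 131084 CPM summed over 5 genes. Kidney and muscle markers were at or near 0, at most 0.108 CPM summed. Summed pancreas markers had a median of 0 CPM but reached 5.95 in controls and 0.0986 in fasted mice. Neutrophil markers reached 5.03 and 4.78 CPM, and adipocyte markers 0.108 and 0.932 CPM. The part of cell composition in the results below was not tested.

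Levels are given as counts scaled to a common library size of 1000000 (CPM). Per kilobase of exon, the control mice from CT12 to CT44 had most RNA for Qprt (68.9 ± 12.0 CPM per kilobase), Nnmt (65.5 ± 37.2) and Nadk (64.1 ± 9.97). These 3 did not differ beyond their spread (SD, n = 36, which includes the change over the day). Naprt followed at 31.0 ± 3.79 CPM per kilobase. Nampt (20.1 ± 9.59) and Acmsd (20.1 ± 17.2) lay together, followed by Nmrk1 (10.8 ± 4.10), Nadsyn1 (6.55 ± 1.23) and Nmnat1 (4.404 ± 0.451). Nmnat3 was lowest at 1.17 ± 0.276, so the highest and lowest members differed 59.1-fold. In fasted mice Nnmt was highest, at 124 ± 49.0 CPM per kilobase, above Nadk (69.2 ± 9.90) and Qprt (50.5 ± 15.7), with the other members in the same order as in controls.

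**Figure D1:**
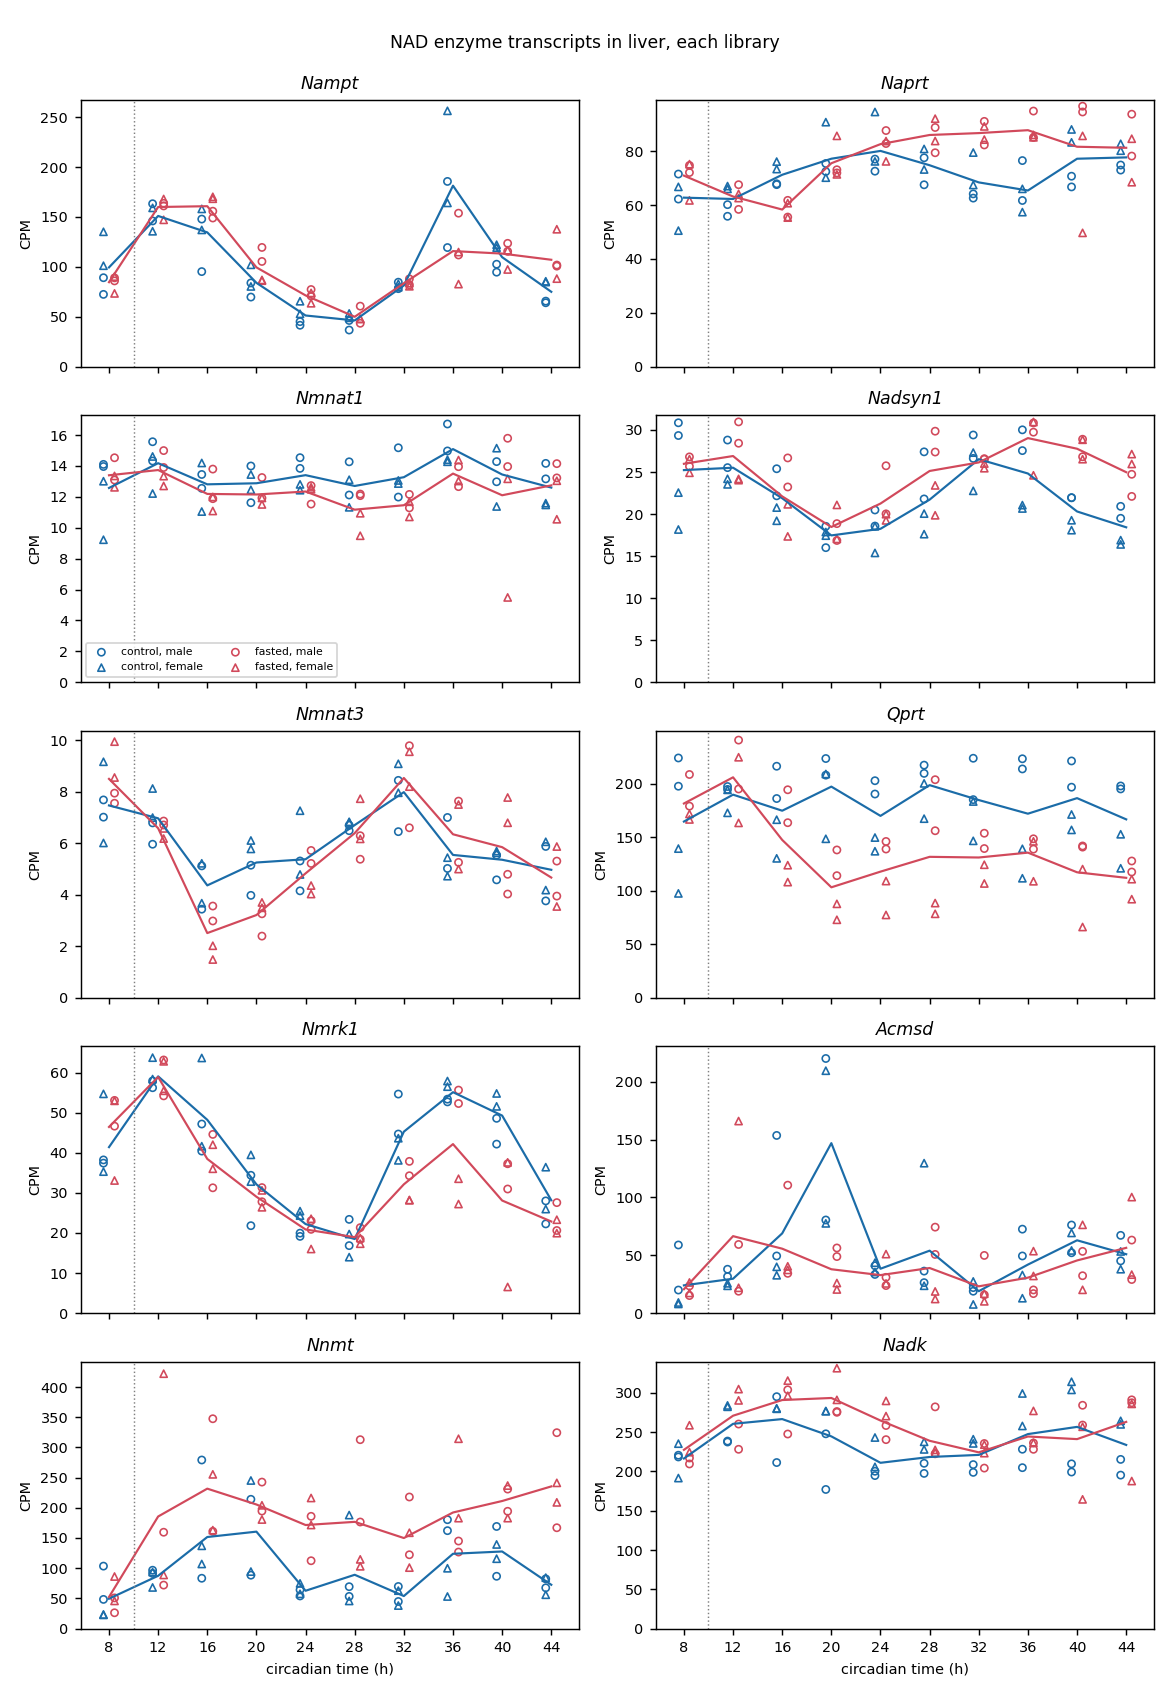
Each panel plots the CPM of 1 gene (vertical axis, from 0) against circadian time in hours, with a point for each of the 80 libraries, circles for males and triangles for females, blue for control and red for fasted mice. Lines join the means of 4 livers and the dotted line marks CT10, when food was removed; fasted Qprt lies low and fasted Nnmt high over most later times, and fasted Nampt lies below most controls at CT36.

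The average fasting difference over CT12 to CT44 was tested with edgeR's quasi-likelihood test, and a gene was called at a Benjamini-Hochberg adjusted p under 0.05 over all genes. Fasting raised Nnmt, Nadsyn1, Nampt, Nadk and Naprt, and lowered Qprt, Nmrk1, Nmnat3 and Nmnat1, while Acmsd was not called. Thus 9 of 10 members were called, 5 higher and 4 lower, where 62.5% of all genes tested were called, 29.5% higher and 32.9% lower. The median size of the members' difference was 0.18 on the log2 scale, against 0.27 for all genes. In the joint test over the 9 times, 8 of 10 members were called and 61.7% of all genes. Nadk (adjusted p = 0.0551) and Nmnat1 (0.454) were not called in it, whereas Acmsd was (0.0353).

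Nnmt had the largest average rise of the members, 0.99 ± 0.14 on the log2 scale (SE, adjusted p = 1.58e-08), or 1.99-fold. Qprt had the largest called fall, with a log2 difference of -0.49 ± 0.047 (adjusted p = 2.18e-12). The 3 differences of Nnmt, Qprt and Nadsyn1 (0.19 ± 0.030, adjusted p = 2.97e-07) were called under all 25 alternatives run.

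The other differences were smaller and less firm. Nmrk1 differed by -0.29 ± 0.077 (adjusted p = 0.00127) and Nmnat3 by -0.18 ± 0.061 (adjusted p = 0.00964). Nampt was higher by 0.13 ± 0.048 (adjusted p = 0.0167), Nadk by 0.11 ± 0.037 (0.00672) and Naprt by 0.096 ± 0.036 (0.0180), and Nmnat1 differed by -0.12 ± 0.044 (0.0190). Acmsd differed by -0.30 ± 0.17 (adjusted p = 0.128). Some of these calls were lost without 1 replicate number of a sex. Such a fit drops 1 mouse from each treatment and time, so it has fewer samples. It leaves 1 mouse of that sex in each group, so the spread comes from the other sex alone. Nmnat1 was not called in males (-0.085, adjusted p = 0.0799) or females alone (-0.14, 0.116), nor without male replicate 1 (-0.11, 0.173) or 2 (-0.13, 0.120). Leaving out 1 replicate number also ended the call of Nampt and of Nadk in 3 of 4 fits each (highest adjusted p = 0.128 and 0.0825), and of Naprt and Nmnat3 in 2 of 4 each (0.249 and 0.111). Single times decided some too. Nampt was not called without CT24 (log2 0.084, adjusted p = 0.151) or CT44 (0.080, 0.176), nor Nadk without CT24 (0.088, 0.0506). Naprt was not called without CT28 (0.082, 0.0559), CT32 (0.064, 0.138) or CT36 (0.054, 0.218), nor Nmnat3 without CT16 (-0.092, 0.218) or CT20 (-0.11, 0.131). Acmsd was called without CT12 (-0.47, adjusted p = 0.0237).

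At single times, none of the 10 members was called at CT8, where both groups were fed, or at CT12, when 1.33% and 1.6% of all genes were called. From CT12 to CT44, 23 of 90 pairs of member and time were called, 11 higher and 12 lower in fasted mice. Of these 23 calls, 6 held in all 4 fits without a replicate number, those of Nmnat3 at CT20, Qprt at CT20 and CT40, Nadsyn1 at CT40 and CT44 and Nnmt at CT44, and 17 were lost in 1 fit or more. The members called numbered 2 at CT16, 3 at CT20, 4 at CT24, 1 at CT28, 3 at CT32, 3 at CT36, 3 at CT40 and 4 at CT44. The shares of all genes called at those times were 23.4%, 36.6%, 24.1%, 21%, 17.7%, 26.8%, 39.9% and 39.4%. Whether the groups of 4 livers overlapped is described below for the members, and the share of all genes without overlap was not counted.

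**Figure D2:**
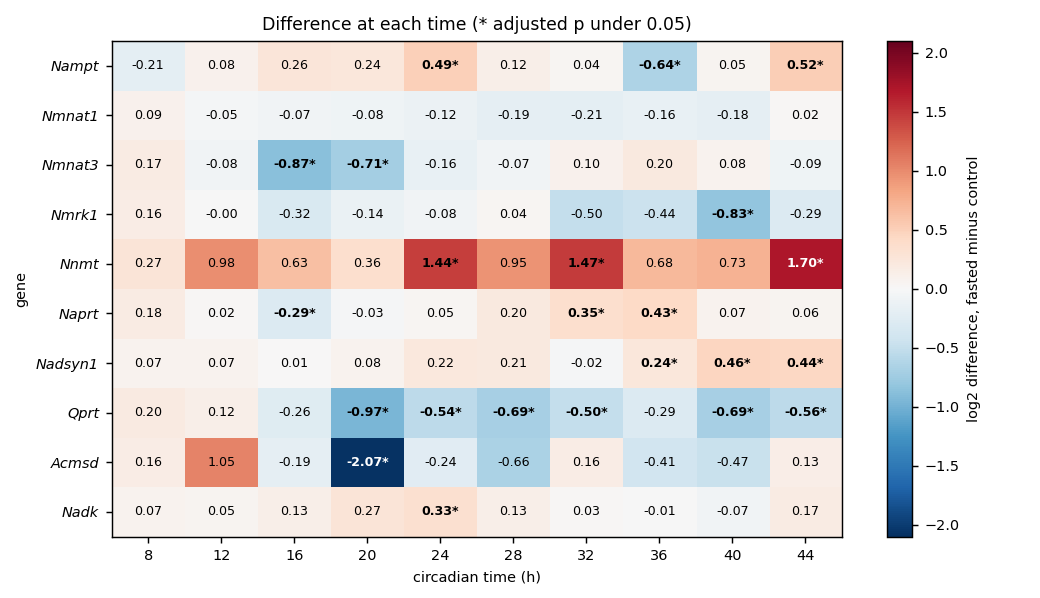
Rows are the 10 genes, columns are circadian times in hours, and color and printed value give the log2 difference of fasted minus control livers, with an asterisk at an adjusted p under 0.05. Qprt was called lower at 6 times and Nnmt higher at 3, while Nampt changed direction between CT24, CT36 and CT44.

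Among the salvage genes, Nampt, which catalyses the slow step of the pathway, was called at CT24, CT36 and CT44. At CT24 control levels were 41.6 and 45.2 CPM in males and 65.6 and 53.0 in females, and fasted levels were 77.4 and 70.9 in males and 63.6 and 74.0 in females. The groups overlapped in 1 control female, which lay above the lowest fasted female, and the log2 difference was 0.49 ± 0.14 (adjusted p = 0.00859). At CT36 the direction was opposite. Controls had 119 and 186 CPM in males and 164 and 256 in females, and fasted mice had 154 and 112 in males and 115 and 82.8 in females. The lowest control male fell within the fasted range, and the log2 difference was -0.64 ± 0.14 (adjusted p = 0.000603). It was not called without male replicate 2 (-0.37, adjusted p = 0.193), without female replicate 2 (-0.35, 0.121) or in males alone (-0.20, 0.515). At CT44 the 4 fasted livers (102, 100.8, 138 and 88.3 CPM) all exceeded the 4 controls (64.1, 65.7, 84.8 and 85.6), with a log2 difference of 0.52 ± 0.14 (adjusted p = 0.00287). The CT24 call was lost without male replicate 1 (0.42, adjusted p = 0.153), without female replicate 2 (0.36, 0.115) and in females alone (0.22, 0.562), and the CT44 call without female replicate 1 (0.34, 0.124) and in females alone (0.42, 0.131).

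The 2 genes for the step from the mononucleotide to NAD moved differently. Nmnat3, whose protein is usually placed in mitochondria, was low early in the fast. At CT16 its controls had 3.44, 5.12, 3.67 and 5.22 CPM and the fasted livers 2.98, 3.56, 2.01 and 1.48 CPM, with overlap only between the highest fasted male and the lowest control male. The log2 difference was -0.87 ± 0.19 (adjusted p = 0.000493), but it was -0.39 and not called in males alone (adjusted p = 0.407), and -0.63 and not called without female replicate 2 (0.0613). At CT20 the fasted livers (2.39, 3.26, 3.70 and 3.49 CPM) all lay below the controls (3.97, 5.14, 5.77 and 6.10 CPM), with a log2 difference of -0.71 ± 0.18 (adjusted p = 0.00207; 0.0502 in males alone). From CT24 to CT44 its differences lay between -0.16 and 0.20 and none was called. Nmnat1, the nuclear enzyme, was called at no single time, with log2 differences from -0.21 to 0.018 between CT12 and CT44. Its level stayed between 11.0 and 16.7 CPM in every control liver of those times. The fasted range was 5.49 to 15.8 CPM, and its lowest value came from female 2 of CT40.

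Nmrk1, the riboside kinase, was called at CT40 alone. Controls had 48.6, 42.1, 51.6 and 54.8 CPM, and fasted livers had 30.9, 37.2, 37.6 and 6.52 CPM, the last in female 2. The groups did not overlap, and the log2 difference was -0.83 ± 0.23 (adjusted p = 0.00342). Without that library the difference was -0.44 and was not called (adjusted p = 0.0554). Its 4 fasted livers at CT32 (37.8, 34.3, 28.2 and 28.2 CPM) also lay below the 4 controls (44.7, 54.6, 38.1 and 43.6), but the difference of -0.50 ± 0.23 was not called (adjusted p = 0.135). Its average over the fast was called without female 2 of CT40 (-0.24, adjusted p = 0.000114) but not without male replicate 1 (-0.25, adjusted p = 0.0776) or in males alone (-0.094, adjusted p = 0.221).

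Nnmt, which clears nicotinamide by methylation, had a higher mean in fasted livers at all 9 times after CT8, and at 4 of the 9 the groups did not overlap. The share of all genes for either was not counted. At CT24 controls had 54.0, 64.1, 57.5 and 74.7 CPM and fasted livers 186, 112, 216 and 171 CPM (log2 difference 1.44 ± 0.41, adjusted p = 0.00724). At CT32 controls had 69.6, 44.8, 38.0 and 62.7 CPM and fasted livers 122, 218, 100.9 and 159 CPM (1.47 ± 0.41, adjusted p = 0.00898). At CT44 controls had 67.4, 82.3, 56.0 and 84.2 CPM and fasted livers 167, 324, 241 and 209 CPM (1.70 ± 0.41, adjusted p = 0.0009). Thus each fasted liver at these 3 times exceeded each control. In males and females fitted alone, the CT24 difference was 1.34 (adjusted p = 0.0952) and 1.56 (0.0791), and the CT32 difference 1.57 (0.0683) and 1.36 (0.160), none of them called. At CT40 the groups also did not overlap, but the difference of 0.73 ± 0.40 was not called (adjusted p = 0.153). Replicate spread was wide, with a median coefficient of variation within a group of 37.4% in controls and 36.3% in fasted mice.

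In the route from nicotinic acid, Naprt was lower in fasted livers at CT16 and higher at CT32 and CT36. At CT16 the fasted livers (55.5, 61.7, 60.7 and 55.3 CPM) lay below all controls (67.9, 67.6, 76.1 and 73.4 CPM), with a log2 difference of -0.29 ± 0.11 (adjusted p = 0.0456). At CT32 they had 91.0, 82.3, 89.2 and 84.3 CPM against 62.6, 64.1, 79.5 and 67.4 in controls (0.35 ± 0.11, adjusted p = 0.0187). At CT36 they had 85.1, 94.9, 86.0 and 85.1 CPM against 76.5, 61.7, 66.0 and 57.4 (0.43 ± 0.11, adjusted p = 0.00225). The groups did not overlap at any of these 3 times, but without a replicate number the call was lost in 3 of 4 fits at CT16, 2 at CT32 and 1 at CT36. Nadsyn1, which amidates the last intermediate of this route, rose late in the fast. The fasted livers had 26.8, 28.9, 26.5 and 28.8 CPM of Nadsyn1 at CT40 against 21.9, 21.9, 18.1 and 19.3 in controls (0.46 ± 0.089, adjusted p = 5.02e-05). At CT44 they had 24.7, 22.1, 27.1 and 26.0 CPM against 20.9, 19.5, 16.4 and 16.9 (0.44 ± 0.089, adjusted p = 8.27e-05). The CT44 difference was not called in males alone (0.21, adjusted p = 0.191). Neither time had overlap, whereas at CT36 the groups overlapped and the difference was 0.24 ± 0.088 (adjusted p = 0.0358; lost in 3 of 4 fits without a replicate number).

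In the route from tryptophan, Qprt, which turns quinolinate into nicotinic acid mononucleotide, was called lower at 6 of 9 times, the most of any member. At CT20 controls had 223 and 208 CPM in males and 209 and 148 in females, and fasted livers had 114 and 138 in males and 87.7 and 72.8 in females. The groups did not overlap and the log2 difference was -0.97 ± 0.14 (adjusted p = 5.19e-07). At CT40 they again did not overlap, with 221, 197, 157 and 171 CPM in controls and 142, 141, 120 and 66.0 in fasted livers (-0.69 ± 0.14, adjusted p = 0.000115). The other 4 called differences, at CT24, CT28, CT32 and CT44, ran from -0.69 to -0.50 with overlapping groups, and each lost its call in 1 or 2 of the 4 fits without a replicate number. Within each sex at CT28, both fasted livers lay below both controls, with 204 and 156 CPM against 217 and 210 in males and 78.3 and 88.4 against 167 and 200 in females. In males alone the CT28 difference was -0.25 and was not called (adjusted p = 0.256).

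Acmsd was called at CT20 alone. Its controls there had 220 and 80.5 CPM in males and 209 and 77.5 in females, and its fasted livers had 48.9 and 56.3 in males and 26.0 and 20.4 in females. All fasted livers lay below all controls, though the controls split into a high and a low liver in each sex, and the log2 difference was -2.07 ± 0.54 (adjusted p = 0.00186). It was not called without male replicate 1 (-1.58, adjusted p = 0.106) or in males alone (-1.52, 0.0785). Elsewhere Acmsd varied widely between livers of a group, with a median coefficient of variation of 48.9% in controls and 56.4% in fasted mice. An antisense gene, 2900009J06Rik, overlaps Acmsd in the GENCODE M21 annotation, and its counts were 0.368% to 7.19% of those of Acmsd.

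Nadk, the NAD kinase, was called at CT24, where fasted livers had 241, 259, 290 and 271 CPM and controls 195, 200, 206 and 243 CPM. The lowest fasted male lay below the highest control female, and the log2 difference was 0.33 ± 0.11 (adjusted p = 0.0262). The call was lost with no filter on low counts (adjusted p = 0.0906), with no sex in the model (0.103), in males (0.112) and in females alone (0.252), and without male replicate 1, male replicate 2 or female replicate 1 (0.25 at the lowest, highest adjusted p = 0.186). At the other times from CT12 to CT44 its differences ran from -0.071 to 0.27.

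The fasting difference differed between females and males for Nampt, Naprt and Nadk, 3 of 10 members against 12.4% of all genes. For Nampt the female difference minus the male difference was -0.37 ± 0.095 (adjusted p = 0.00743). Fitted alone, males had a rise of 0.32 ± 0.063 (adjusted p = 0.000167) and females a difference of -0.054 ± 0.068 (adjusted p = 0.518). In males the mean of 18 livers from CT12 to CT44 was 92.9 ± 43.99 CPM in controls and 110 ± 36.1 CPM in fasted mice. In females it was 110 ± 52.4 and 103 ± 39.9 CPM (SD, including the change over the day). For Nadk the sexes differed by -0.28 ± 0.074 (adjusted p = 0.00920), with 0.26 ± 0.047 in males (adjusted p = 6.08e-05) and -0.024 ± 0.058 in females (adjusted p = 0.755). For Naprt they differed by -0.21 ± 0.071 (adjusted p = 0.0424), with 0.20 ± 0.035 in males (adjusted p = 2.34e-05) and -0.0080 ± 0.061 in females (adjusted p = 0.935). Without female 2 of fasted CT40 the Naprt difference was -0.17 and was not called (adjusted p = 0.0706). Nmrk1 had the largest uncalled sex difference of the salvage genes, -0.38 ± 0.15 (adjusted p = 0.0954). None of the 3 calls held without male replicate 1 or without male replicate 2. Without these 2 in turn, Nampt had -0.38 and -0.35, Naprt -0.24 and -0.17 and Nadk -0.29 and -0.26. The calls of Nampt (-0.31) and Naprt (-0.19) were also lost without female replicate 2. Each such fit kept 1 mouse of that sex per group, so the spread came from the other sex alone. Naprt was also not called with upper quartile scaling (-0.20, adjusted p = 0.0542).

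**Figure D3:**
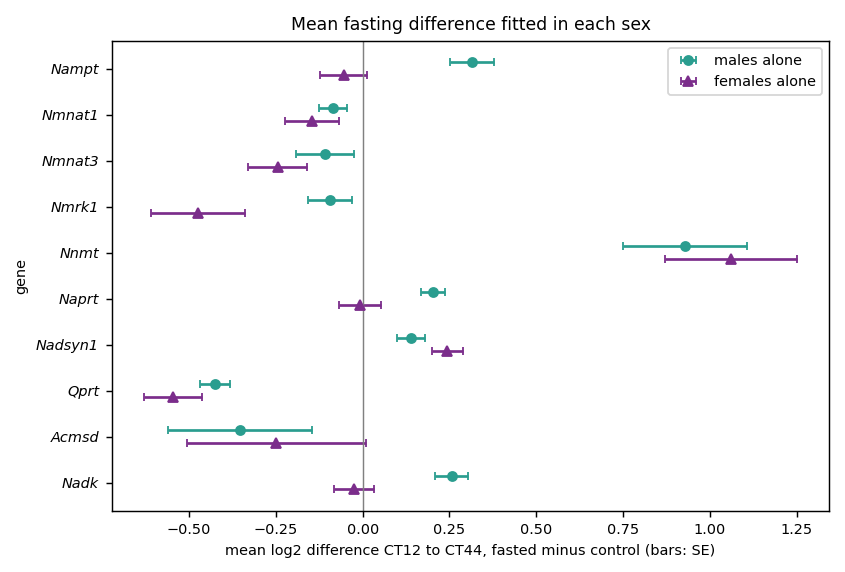
The horizontal axis is the mean log2 difference of fasted minus control livers over CT12 to CT44 fitted in males alone (circles) and females alone (triangles), with SE bars, for each of the 10 genes on the vertical axis. The sexes lie apart for Nampt, Nadk and Naprt, which lie above 0 in males and near 0 in females, and close together for Nnmt.

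Between the sexes in control mice, 4 of 10 members were called against 39.2% of all genes. Qprt was lower in females, by a log2 difference of -0.43 ± 0.064 (adjusted p = 3.92e-07), with means of 206 ± 13.3 CPM in 18 males and 159 ± 26.9 CPM in 18 females. Nadsyn1 was also lower in females (-0.27 ± 0.040, adjusted p = 3.64e-07). Nampt (0.29 ± 0.064, adjusted p = 0.000257) and Nadk (0.27 ± 0.050, adjusted p = 2.88e-05) were higher in females. Without female 2 of fasted CT40, which enters the shared estimate of the spread, Naprt (0.10, adjusted p = 0.0437) and Nmnat1 (-0.13, adjusted p = 0.0124) were called too, and Naprt also without female 2 of control CT8 (0.12, adjusted p = 0.0436). Nadk had means of 215 ± 26.8 CPM in males and 265 ± 28.8 CPM in females, and in fasted mice the means were 257 ± 27.96 and 262 ± 45.2 CPM.

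A 24 h rhythm was called in the control livers for 8 of 10 members, against 41.8% of all genes, and the members' median peak-to-trough was 0.61 on the log2 scale against 0.36 for all genes tested. Nampt had a peak-to-trough of 1.81, or 3.52-fold, with a peak at CT13.4 (adjusted p = 5.81e-14). Its means ran from 46.4 ± 7.03 CPM at CT28 to 181 ± 57.1 CPM at CT36 (SD, n = 4). Nmrk1 peaked at nearly the same time, CT12.9, with a peak-to-trough of 1.59 (adjusted p = 1.70e-12) and means from 18.5 ± 4.03 CPM at CT28 to 59.0 ± 3.24 CPM at CT12. Leaving out each replicate in turn moved the peak of Nampt between CT13.3 and CT13.6 and that of Nmrk1 between CT12.6 and CT13.3.

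The other rhythmic members peaked at other times. Nmnat3 peaked at CT7.0 with a peak-to-trough of 0.65 (adjusted p = 1.74e-05). Nadsyn1 peaked at CT9.7 with 0.57 (adjusted p = 7.65e-10), and Nadk at CT15.1 with 0.33 (adjusted p = 0.000502; 0.249 in males alone). Nnmt peaked at CT17.2 with 1.18 (adjusted p = 0.00705), a call that was lost without male replicate 1 (0.87, adjusted p = 0.142) or female replicate 1 (0.90, adjusted p = 0.131) and in females alone (adjusted p = 0.120). Acmsd had a peak-to-trough of 1.87, between 1.4998 and 2.32 with a replicate left out, with a peak at CT20.3 (adjusted p = 0.000377), and means from 18.9 ± 8.40 CPM at CT32 to 147 ± 78.5 CPM at CT20. Naprt peaked at CT22.2 with 0.32 (adjusted p = 0.000183). The peaks of the 8 genes were therefore spread from CT7.0 to CT22.2, in the order Nmnat3, Nadsyn1, Nmrk1, Nampt, Nadk, Nnmt, Acmsd and Naprt. Nmnat1 (0.14, adjusted p = 0.211) and Qprt (0.021, adjusted p = 0.984) were not called.

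**Figure D4:**
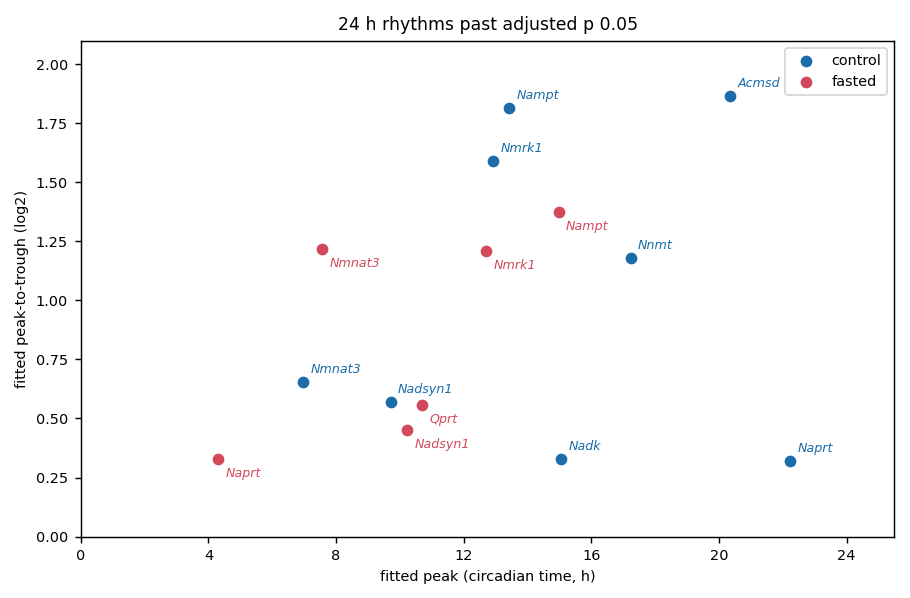
Points give the fitted peak in circadian hours (horizontal axis) and the fitted peak-to-trough on the log2 scale (vertical axis) of each member whose 24 h rhythm was called, blue for control and red for fasted mice. Nampt was lower and later in fasted than in control livers, and Naprt lay near CT22.2 in control and near CT4.3 in fasted livers.

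For the fasted livers the fit ran from CT12 to CT44 and allowed a steady drift beside the rhythm. Here 6 of 10 members had a called rhythm against 47.1% of all genes. Nampt kept one, with a peak-to-trough of 1.38 and a peak at CT15.0 (adjusted p = 1.31e-09). Nmrk1 (1.21, CT12.7, adjusted p = 1.07e-05), Nmnat3 (1.22, CT7.6, adjusted p = 1.30e-05) and Nadsyn1 (0.45, CT10.2, adjusted p = 0.000128) also had one. Qprt, which had no called rhythm in controls, had a peak-to-trough of 0.56 at CT10.7 in fasted livers (adjusted p = 0.00312). Its fasted means were 206 CPM at CT12, 147 at CT16 and 103 at CT20, and lay between 112 and 136 CPM from CT24 to CT44. Whether this was a recurring rhythm or 1 fall after food removal was not tested. Naprt had 0.33 at CT4.3 (adjusted p = 0.00903), a call lost without male replicate 1 (adjusted p = 0.0840), female replicate 1 (0.0655) or female replicate 2 (0.0510), in males (0.175) or females alone (0.0754), and without the drift (0.0788). The Qprt rhythm was lost with no sex in the model (0.0505) and in males alone (0.0861), and the Nmrk1 rhythm in females alone (0.0685). Nadk missed the threshold (0.26, adjusted p = 0.0547) and was called without female 2 of fasted CT40 (0.31, adjusted p = 0.00445), as was Nmnat1 (0.24, adjusted p = 0.0138). Nnmt (0.50, adjusted p = 0.265) and Acmsd (0.80, adjusted p = 0.319) were not called.

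The difference between the rhythms was tested directly and called for 3 of 10 members, against 21.6% of all genes. They were Nampt (adjusted p = 0.00404), Naprt (0.0149) and Qprt (0.0311). Each call was lost in 2 or more of the 4 fits without a replicate number, which have fewer samples. Nampt was lost without male replicate 2 (0.0744), without female replicate 2 (0.0522) and in females alone (0.195). Naprt was lost without male replicate 1 (0.0712), female replicate 1 (0.0554) or female replicate 2 (0.0829), in each sex alone and without the drift (0.0819). Qprt was lost without each replicate (adjusted p from 0.0541 to 0.173), in each sex alone and with no sex in the model (0.223). For Nnmt (adjusted p = 0.592, though 0.0302 without female replicate 2) and Acmsd (0.246), whose rhythm was called only in controls, the difference was not called with all replicates. At an adjusted p under 0.01 only Nampt was called, again with all replicates.

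Nnmt and Acmsd varied together between livers of the same treatment, time and sex. With each library set against the mean of its 2 replicates, Pearson's r over the 80 libraries was 0.86 and Spearman's rho 0.82. The 80 values are 40 mirrored pairs of mice, and in 34 of the 40 pairs the mouse with more Nnmt RNA also had more Acmsd RNA. Pearson's r was 0.92 in controls, 0.81 in fasted mice and 0.88 in the 76 libraries outside the groups of the 2 libraries that stood apart. The widest pair for both genes was fasted CT12, where female 2 had 422 CPM of Nnmt against 88.7 in female 1 and 166 CPM of Acmsd against 21.9. In controls at CT20, male 1 had 214 CPM of Nnmt and 220 of Acmsd, while male 2 had 88.4 and 80.5.

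**Figure D5:**
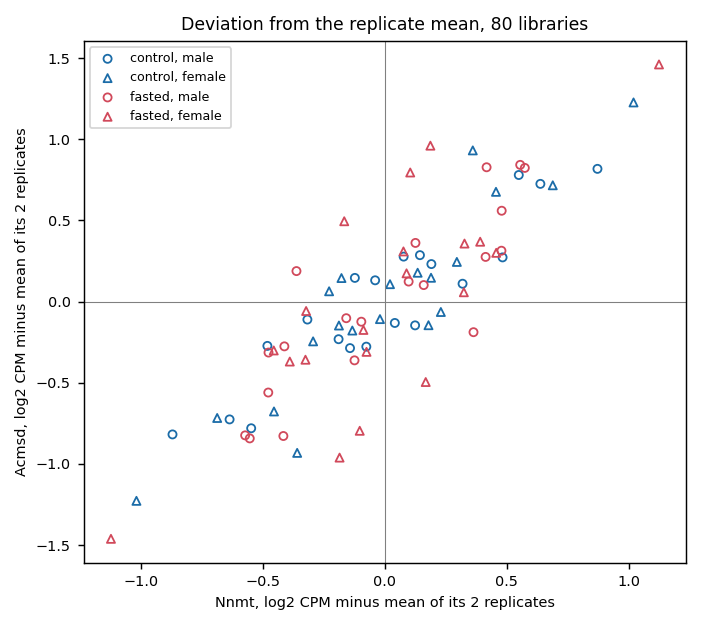
Each point is 1 of 80 libraries, with the deviation of Nnmt (horizontal) and Acmsd (vertical) from the mean of its 2 replicates in log2 CPM, blue for control and red for fasted, circles for males and triangles for females. Points mirror each other through 0 because each pair shares its mean, and most lie in the lower left or upper right.

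Among genes chosen after their values were seen, those most like Nnmt in these deviations were Sds, a serine dehydratase also used here as a periportal marker (r = 0.90), Acmsd (0.86) and the amino acid transporter subunit Slc3a1 (0.85). The part of lobular position or recent feeding in this was not tested. Nmnat1 and Nmrk1 also deviated together (r = 0.81 over 80 libraries), but r was 0.50 without the groups of the 2 libraries that stood apart.

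Over the 20 means of treatment and time, the 3 genes most like each member by Spearman's rho were taken from genes averaging at least 1 in log2 CPM. For Nampt they were Maco1 (0.96), Noct (0.94) and Vps13a (0.94). For Nnmt they were Aass (0.98), Gm67682 (0.95) and Sult1d1 (0.95), Aass being the lysine-degrading enzyme of mitochondria. For Qprt they were Bdh2 (0.95), Qdpr (0.94) and Tmem86b (0.94). For Nmrk1 they were Gm14403 (0.94), Osbpl5 (0.93) and Tnks1bp1 (0.93), for Nmnat3 Rasa3 (0.95), Cfap20 (0.94) and Nudt16 (0.94), and for Nadsyn1 Klf1 (0.94), Pcsk4 (0.94) and Gys2 (0.93). Naprt, Nadk, Acmsd and Nmnat1 had weaker best matches, led by Suox (0.91), Golim4 (0.90), Syt11 (0.86) and Tppp (0.85). The means share treatment and time.

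Of 34 other genes of NAD metabolism, 30 were tested, and on average over the fast 9 were higher and 15 lower, where 29.5% of all genes tested were higher and 32.9% lower. Of 7 tested genes of the kynurenine pathway, 3 were higher and 4 lower. Tdo2, which opens the pathway, was higher by 1.15 ± 0.055 on the log2 scale (adjusted p = 1.29e-22), with means of 1067 CPM in controls and 2389 in fasted mice. Haao, whose product gives rise to quinolinate, differed by -0.80 ± 0.053 (adjusted p = 1.06e-17), from 453.0 to 270.1 CPM. Both of the tested genes for other NAD or NADP synthesis were lower, Nadk2 of mitochondria by a difference of -0.19 (adjusted p = 0.000192) and Nmnat2 by -0.67 (adjusted p = 0.00119) at under 1 CPM.

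Downstream, 1 of the 2 aldehyde oxidase genes that can oxidise methylated nicotinamide was lower, Aox3 by -1.40 ± 0.094 (adjusted p = 1.48e-17), while Aox1 differed by -0.064 (adjusted p = 0.396). Of 7 tested genes that break down nucleotides and ribosides, 2 were higher, Nt5c2 (0.45, adjusted p = 6.72e-16) and Pnp2 (0.68, adjusted p = 1.40e-05), and 2 were lower. Pnp2 was at under 1 CPM, with means of 0.358 in controls and 0.596 in fasted mice. Sarm1, among the lower genes, was also at under 1 CPM (0.416 and 0.360). Of 3 tested transporters, Slc25a51, the mitochondrial NAD carrier, was higher (0.96 ± 0.062, adjusted p = 4.62e-18) and Slc25a17 of peroxisomes lower (-0.49, adjusted p = 3.88e-15). The 3 poly(ADP-ribose) polymerase genes tested were called lower, as were 32.9% of all genes, with Parp1 (-0.50, adjusted p = 4.02e-20) and Parp3 (-0.46, adjusted p = 5.79e-13) among them. Of 6 genes for NADP and hydrate handling, 3 were higher and 2 lower, led by Nudt13 (-0.35, adjusted p = 1.19e-13) and Naxd (0.19, adjusted p = 2.07e-10). Among the higher genes Nnt was very low, with means of 0.818 CPM in controls and 1.16 in fasted mice.

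Exon usage, tested from counts per exon bin, was called for 2 of 10 members against 14.3% of 13889 genes. In Nmrk1 (adjusted p = 0.00266) the change lay in bin 9, which held 7.11% ± 1.53 of the gene's bin counts in 36 control livers and 9.23% ± 1.65 in 36 fasted livers. Its log2 change relative to the whole gene was 0.26. In Qprt (adjusted p = 0.00802) it lay in bin 6, which had a mean of 24.03 counts in controls and 11.0 in fasted mice, 0.233% and 0.165% of the gene. Qprt was not called with at least 10 counts per bin in every library (adjusted p = 1.00) or by limma (0.132), while Nmrk1 was called by both (0.00258 and 0.000409). The bins carry no coordinates, and 3 of the 80 exon columns, all of fasted CT40, were most like another library of their group in the gene table, so this group was fitted without sex.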

How the data were processed

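RNA of 80 livers, 1 per mouse, was sequenced by the authors from stranded poly(A) libraries. The authors deposited raw counts per gene and raw counts per exon bin, whole numbers without normalization. Per the submitters' processing notes, Trimmomatic, HISAT2 and DESeq2 were used with GRCm39; versions and the counting program are not given in the sources used here, nor whether counting used strand. Nampt, Naprt and Nmnat3 share bases with a gene on the same strand in GENCODE M21 (GRCm38), and Nmnat1 and Acmsd with one on the other strand, so their counts may be split. Deposited normalized values were not used. Exon table rows without a bin, 8.28% to 25.9% of each column, were left out. The article is a review without methods for these data, so the tests were chosen here.

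Libraries were grouped by title. Genes were filtered with edgeR's filterByExpr and normalized by TMM, and edgeR 4.0.16 (R 4.3.3) fitted 1 mean per combination of treatment, time and sex by its quasi-likelihood method. Rhythms were fitted with a 24 h cosine and sine and sex, over 40 control libraries or 36 fasted libraries (with a linear drift). Exon usage was tested with diffSpliceDGE. All p-values were adjusted over all genes by the Benjamini-Hochberg method. CPM were scaled by TMM, with a prior count of 2 for log2 values. Levels per kilobase used M21 exon lengths. Alternatives were DESeq2 1.42.0 and its size factors, limma 3.58.1, upper quartile scaling, no filter, no sex, each sex alone, a replicate block, each replicate, time or outlying library left out, and other rhythm models. The scripts were tested on simulated data. Replicates were separate mice, and all replicate pairs differed by more than sampling noise (chi-square per degree of freedom at least 14.8). The replicate numbers did not pair control with fasted mice (1 of 20 correlations over 0.1). Some promoter windows are not reported here. The members and lists were chosen with earlier results of these data known.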

Additional observations from a re-analysis of the deposited data

Results flagged for a closer look

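Of 200 groups of 4 livers (10 genes, 2 treatments, 10 times), 11 held a liver far from the other 3, where chance gives about 10. The measure is the gap to the nearest liver as a share of the group's range of log2 CPM, and 0.829 is the critical value. Nmrk1 in female 2 of fasted CT40 was the lowest at 6.52 CPM, next to 30.9 CPM (share 0.889). Acmsd in male 1 of fasted CT16 was the highest at 111 CPM, next to 40.4 CPM (0.861). Nadk had 3 such groups, with female 1 of fasted CT44 lowest at 188 CPM (0.959), male 1 of fasted CT28 highest at 282 CPM (0.908) and male 2 of control CT16 lowest at 211 CPM (0.840). Naprt had 2, with female 2 of fasted CT20 highest at 85.7 CPM (0.870) and male 2 of fasted CT36 highest at 94.9 CPM (0.900). The others were Nnmt in female 1 of control CT12, lowest at 68.0 CPM (0.840), Nadsyn1 in male 1 of fasted CT24, highest at 25.7 CPM (0.864), Nmnat3 in male 2 of control CT40, lowest at 4.57 CPM (0.870), and Qprt in female 2 of control CT12, lowest at 173 CPM (0.882).

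The fasting difference was tested between the sexes and differed for Nampt (female minus male -0.37 on the log2 scale), Naprt (-0.21) and Nadk (-0.28). Causes were not tested.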

How the results depend on the processing

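Of the 250 values of the members' average fasting difference under the alternatives, 217 kept direction and side of the threshold, 28 lost the call, 2 gained it and 3 turned direction. The 3 that turned were Nampt (-0.054), Naprt (-0.0080) and Nadk (-0.024) in females alone. The sex difference of fasting turned for Nnmt without male replicate 1 (range -0.13 to 0.40 over replicates left out), for Nmnat1 without female replicate 2 (-0.16 to 0.0047), for Acmsd without male replicate 1 or female replicate 2 (-0.18 to 0.49), and for Acmsd (-0.033) without female 2 of fasted CT40, an alternative chosen after seeing the data. None of these values was called. Leaving out each replicate number in turn gave 3 to 8 members called on average over the fast, 4 to 8 at any time, 0 to 4 for the sex difference of fasting, 4 to 7 between the sexes in controls, 1 for the difference between rhythms (Nampt in 2 fits, Naprt in 1 and Nnmt in 1) and 12 to 28 pairs of member and time, with fewer samples in each fit. Females alone gave 5 members on average over the fast, 13 pairs of member and time and 0 for the difference between rhythms. Males alone gave 5 at any time and 1 for the difference between rhythms. Of all genes, 13233 were called on average in the main fit, 11757 in females alone and 10354 in males alone. For the other counts in each sex, the share of all genes is not given here. Without a filter on low counts, 7 members differed between the sexes in controls and 6 between rhythms, and the shares of all genes are not given here. In that setting Acmsd was called on average (-0.31, adjusted p = 5.00e-17 by edgeR), as were 12427 of all genes. The cause was not tested. At an adjusted p under 0.01, 1 rhythm difference was called. Exon usage was called for 1 member with at least 10 counts per bin, where 946 of 9150 genes were called. By limma it was called for 1 member and for 2199 of 13889 genes. With a replicate block, 9 members were called on average, as were 13189 of all genes. It gave 24 pairs of member and time, against 23 without, and no other count of members changed. Without female 2 of control CT8 no count moved by over 1.5 times. With fewer than 10 CPM, Nmnat3 had the lowest counts of the members.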
